A study of Mus musculus with 6 samples.

Results

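Levels of 8 genes of plasma cell differentiation, Pou2af1, Xbp1, Irf4, Prdm1, Mzb1, Derl3, Jchain and Sdc1, were read from microarrays of mouse leukemias with and without the adaptor gene Sh2b3. The members were chosen by gene symbol: 15 of the 45101 probe sets on the array carry one of these 8 symbols, and immunoglobulin chains were left out. The wild-type group held 3 arrays of leukemias grown from C57BL6 marrow, and the knockout group held 3 arrays of leukemias grown from Sh2b3-/- marrow. In both groups the donors were 8 weeks old. Their lineage-depleted progenitors carried the MigR1-ΔE-Notch1 retrovirus, which supplies an activated NOTCH1, and the recipients were irradiated C57BL6 mice. NOTCH1 activation is therefore shared by both groups, and they differ in the Sh2b3 genotype of the donor; the labels state no strain for the knockout samples. The sample titles call the arrays biological replicates, while the extraction protocol speaks of RNA isolated in triplicate, and no label says which arrays come from separate animals. Cells of the irradiated host can remain in such tumours, and the labels' protocols name no sorting step before RNA was extracted.

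Plasma cells are the antibody-secreting end stage of the B lymphocyte lineage. IRF4, PRDM1 (Blimp-1) and XBP1 are the transcription factors of that stage: IRF4 and PRDM1 turn off the B cell programme, and XBP1 expands the endoplasmic reticulum and the secretory machinery. POU2AF1 (OBF-1) is the coactivator through which octamer-binding factors act in B lymphocytes. MZB1 and DERL3 work in the endoplasmic reticulum, JCHAIN joins the subunits of secreted IgM and IgA, and SDC1 (CD138) is the surface proteoglycan by which plasma cells are recognised. None of these genes is exclusive to plasma cells. T lymphocytes can express Irf4, Prdm1 and Xbp1, plasmacytoid dendritic cells express several members, and epithelia carry SDC1.

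Values are log2 signals. The array medians lay between 2.26 and 2.36, so a value near 2 is at the bottom of the scale. Of the Sh2b3 probe sets, the more intense one read 4.25, 4.83 and 4.08 on wild-type arrays 1, 2 and 3 and 2.29, 2.24 and 2.29 on the knockout arrays, with no overlap. The other Sh2b3 probe set read 1.75 to 1.97 on all arrays and checks nothing. T lymphocyte markers were present throughout, with Cd3d between 12.13 and 12.63 and Cd3g between 11.82 and 12.35. Wild-type arrays 1 and 2 were closer to each other than any other pair. Their difference had an SD of 0.234 over the 6725 tested genes whose mean exceeded 5, and the remaining pairs had SDs from 0.503 to 0.689. Member results that lean on this pair are given below with the pair averaged into 1 sample as well.

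Pou2af1, Mzb1 and Jchain had higher signals in knockout, by 2.22, 2.28 and 1.68 on the log2 scale, or 4.67-fold, 4.86-fold and 3.2-fold. Xbp1 was higher by 0.49 and Derl3 by 0.56. Irf4 was lower by 0.80, Sdc1 differed by -0.13, and Prdm1 gave no signal above the bottom of the scale. None of the 7 members tested passed an adjusted p of 0.05 in limma, and 0 of the 12565 genes tested did, which is 0% of them; the lowest adjusted p among the members was 0.376, for Pou2af1. For 5 of the 7 tested members the 3 knockout values all lay above the 3 wild-type values, where 5.49% of all genes tested did so; for 0 members they all lay below, where 8.29% of all genes did. At an unadjusted p under 0.05, 4 of 7 members were higher in knockout, against 3.3% of all genes. These members were picked with results of the same arrays known, so the counts describe them and are not independent support. A two-sided exact permutation test of 3 arrays against 3 cannot give a p below 0.1, and the 5 members without overlap each had 0.1.

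**Figure D1:**
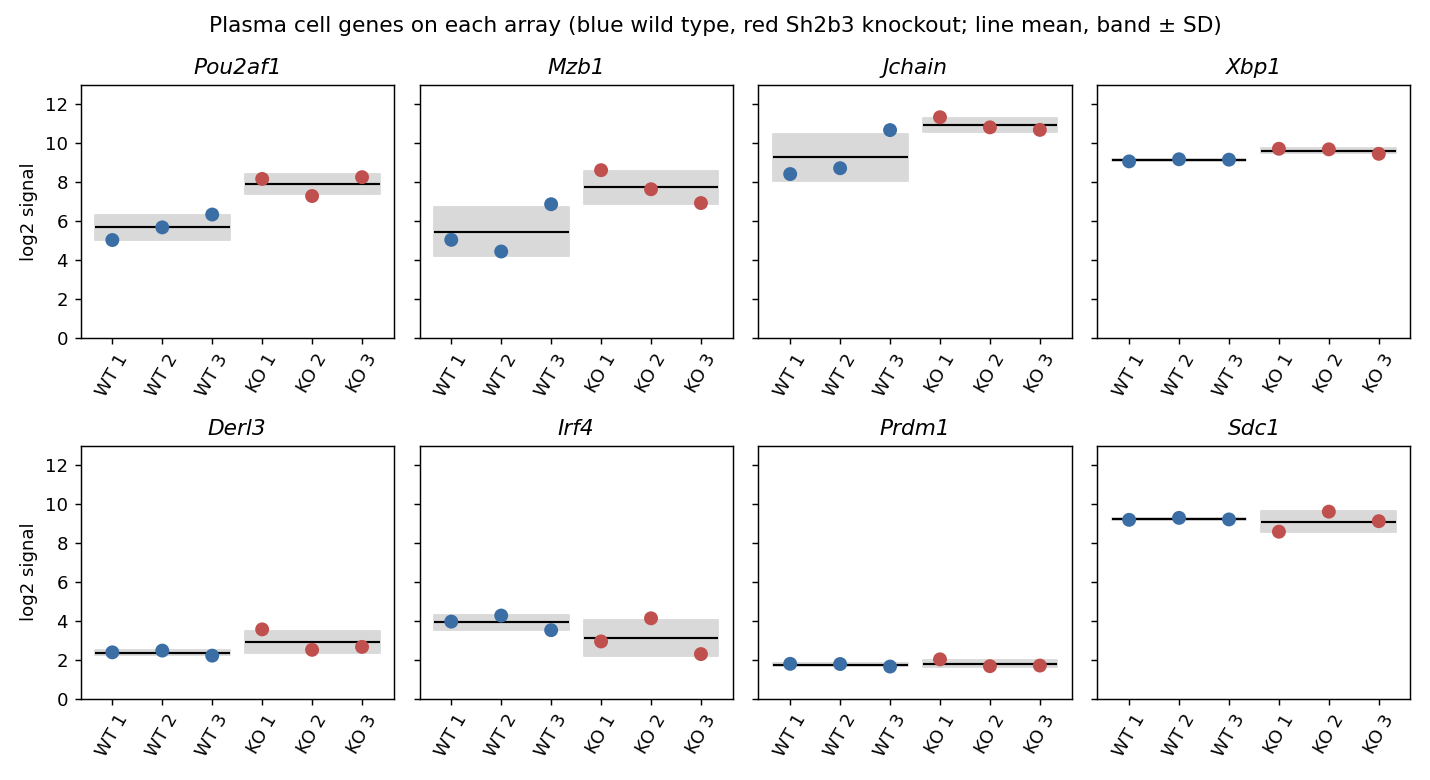
Each panel plots the log2 signal (vertical axis) of 1 gene on the 6 arrays (horizontal axis), blue for wild type and red for Sh2b3 knockout, with the group mean as a line and ± 1 SD (n = 3) as a band. Pou2af1 is above 7 on every knockout array and below 7 on every wild-type array, whereas Mzb1 and Jchain on wild-type array 3 reach the level of knockout array 3.

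Among the transcriptional regulators, Pou2af1 separated the groups by the widest margin. Its probe set read 5.03, 5.68 and 6.34 on wild-type arrays 1, 2 and 3 and 8.17, 7.29 and 8.26 on the knockout arrays. The lowest knockout value lay 0.95 above the highest wild-type value, and the 2 groups did not overlap. Group means were 5.68 ± 0.66 and 7.91 ± 0.54 (SD, n = 3). The log2 difference was 2.22, its standard error 0.388 and its adjusted p 0.376 by limma. Its unadjusted p was the 14th smallest of the 12565 genes. Without wild-type replicate 3 the difference was 2.55, past the threshold (adjusted p = 0.0374; the 16 alternatives ran from 0.0374 to 0.986). With wild-type replicates 1 and 2 averaged it was 2.06 with an adjusted p of 0.942.

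The promoter of Pou2af1 is shown because it was the member with the clearest separation and the 1 member promoter of 7 that holds the element TGACGTGG, a sequence that XBP1 and ATF6 are known to bind. The window runs from 250 bases before to 50 bases after the start of the gene, at chr9:51213440-51213739 on the plus strand of GRCm38.p6, from RefSeq. It is written in the direction of the gene, with motif matches in capitals.

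Pou2af1: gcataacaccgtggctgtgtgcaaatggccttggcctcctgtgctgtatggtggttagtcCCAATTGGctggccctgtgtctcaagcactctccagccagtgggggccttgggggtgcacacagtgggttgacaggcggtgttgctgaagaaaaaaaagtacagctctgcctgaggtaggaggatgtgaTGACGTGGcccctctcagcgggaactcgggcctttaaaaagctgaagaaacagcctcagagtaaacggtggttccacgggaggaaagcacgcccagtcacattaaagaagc

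TGACGTGG starts at position -61 relative to the start site. Of 32851 promoter windows of the same length, 0.676% hold it on either strand. The shorter core ACGTG lies inside it, and 19.6% of windows hold that core. The first capitals are a CCAAT box and its reverse complement, overlapping by 2 bases; 37.4% of windows hold CCAAT. The octamer ATGCAAAT, present in 1.74% of windows, was in 0 of the 7 member promoters. GGAANNGAA, a core of composite ETS and IRF sites, and GAAANNGAA, a core of interferon response elements, were also in 0 of 7, against 8.24% and 8.56% of windows. Matches on both strands were counted for each motif, and a match is a description of letters only.

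Xbp1 had a smaller and more even difference. Its most intense probe set read 9.07, 9.18 and 9.16 in wild type and 9.72, 9.69 and 9.46 in knockout. The groups did not overlap, and the gap between them was 0.28. Means were 9.14 ± 0.06 and 9.62 ± 0.14 (SD, n = 3), so that the log2 difference was 0.49 (standard error 0.131, adjusted p = 0.629 by limma). Averaging wild-type replicates 1 and 2 left the difference at 0.48. Of the 3 other Xbp1 probe sets, the one next in signal read 7.55, 7.64 and 7.74 in wild type and 8.23, 8.03 and 7.76 in knockout, a separation of 0.02 between the nearest arrays. Another, of like signal, overlapped between groups, with wild-type values of 7.57, 6.87 and 8.10 and knockout values of 8.36, 8.02 and 7.78. The dimmest read 3.08 to 3.63 in wild type and 3.27 to 3.72 in knockout. All 4 probe sets had higher means in knockout, by 0.14 to 0.54. These probe sets do not tell the spliced, active form of the Xbp1 transcript from the unspliced one.

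Irf4 did not follow Pou2af1 and Xbp1. It read 3.96, 4.27 and 3.52 in wild type and 2.94, 4.13 and 2.29 in knockout. Knockout array 2 lay inside the wild-type range, and knockout arrays 1 and 3 below it. The log2 difference was -0.80, with a 95% interval from -1.84 to 0.25 and a standard error of 0.454 (adjusted p = 0.685 by limma). It was -1.30 without knockout replicate 2 and -0.38 without knockout replicate 3. The second Irf4 probe set read 1.85 to 2.27 on the 6 arrays, under the level required for testing.

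Prdm1 gave values between 1.65 and 2.02 on all 6 arrays from its 1 probe set. This lies under the median of every array. It did not pass the filter on low values and was not tested; the group means were 1.74 ± 0.08 and 1.80 ± 0.19 (SD, n = 3). A change in Prdm1 could not be seen at this signal.

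**Figure D2:**
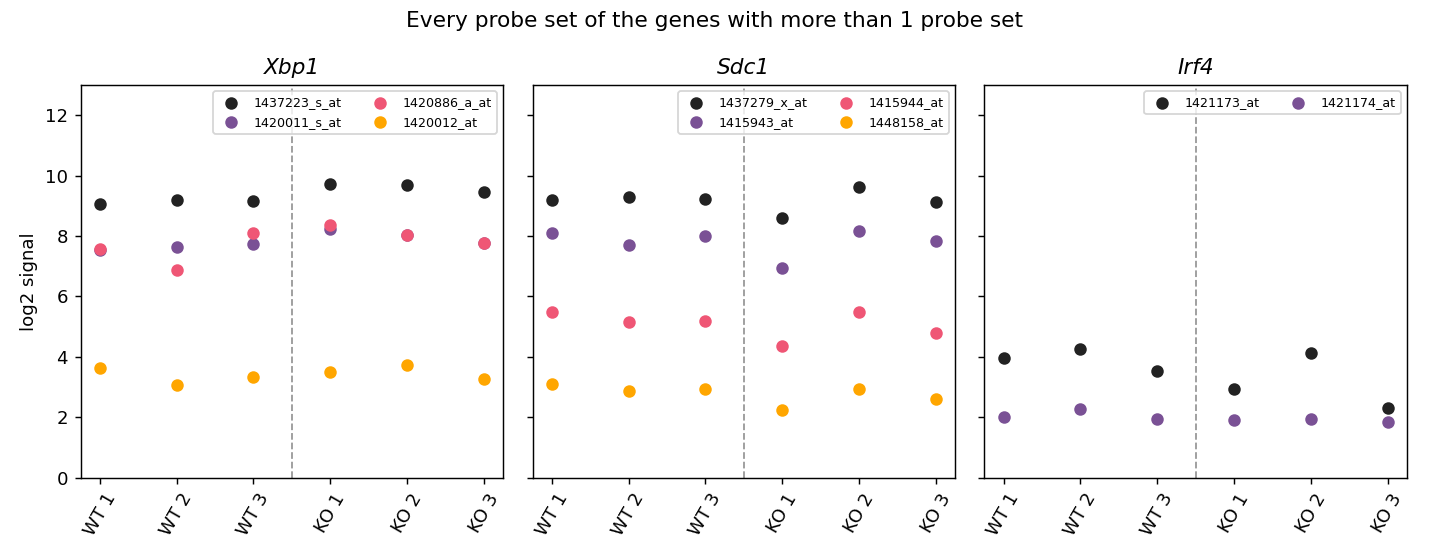
Log2 signal (vertical axis) of every probe set of Xbp1, Sdc1 and Irf4 on the 6 arrays (horizontal axis), 1 colour per probe set. The 4 probe sets of Sdc1 are all lowest on knockout array 1, and 2 of the 4 probe sets of Xbp1 are higher on each knockout array than on each wild-type array.

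In the endoplasmic reticulum group, Mzb1 (pERp1), a chaperone for the assembly of IgM, had a difference close to that of Pou2af1; which of the 2 was larger depended on the arrays used. It read 5.04, 4.44 and 6.87 on wild-type arrays 1, 2 and 3 and 8.62, 7.64 and 6.93 on the knockout arrays. The groups did not overlap, but wild-type array 3 lay within 0.06 of knockout array 3, and 2.13 above the mean of wild-type arrays 1 and 2. Means were 5.45 ± 1.27 and 7.73 ± 0.85 (SD, n = 3), and the log2 difference was 2.28 (standard error 0.646, adjusted p = 0.629 by limma). With wild-type replicates 1 and 2 averaged the difference was 1.93, and over the 16 alternatives it ran from 1.78 to 2.99.

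Derl3, a component of the channel that removes misfolded proteins from the endoplasmic reticulum, was dim. It read 2.38, 2.47 and 2.21 in wild type and 3.56, 2.51 and 2.66 in knockout. Only knockout array 1 stood clear of wild type, and the gap between the nearest arrays of the 2 groups was 0.04. This gave a log2 difference of 0.56 (standard error 0.277, adjusted p = 0.664 by limma). Without knockout replicate 1 it was 0.23. So low on the scale, the size of the difference is uncertain.

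The promoters of Derl3 and Jchain are shown beside that of Pou2af1 because they are the remaining member promoters with the core ACGTG, found in 3 of 7 members. Both cover the same window around the gene start. Derl3 lies at chr10:75893148-75893447 on the plus strand and Jchain at chr5:88527848-88528147 on the minus strand of GRCm38.p6, from RefSeq. Each is written in the direction of its gene, with ACGTG and CCAAT, or their reverse complements CACGT and ATTGG, in capitals.

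Derl3: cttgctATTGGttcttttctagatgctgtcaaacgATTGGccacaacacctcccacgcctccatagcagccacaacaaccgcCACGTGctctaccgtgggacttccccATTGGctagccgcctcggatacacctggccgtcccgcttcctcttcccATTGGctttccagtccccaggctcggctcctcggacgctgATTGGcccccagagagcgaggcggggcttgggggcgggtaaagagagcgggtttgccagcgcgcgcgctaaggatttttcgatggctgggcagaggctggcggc

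Jchain: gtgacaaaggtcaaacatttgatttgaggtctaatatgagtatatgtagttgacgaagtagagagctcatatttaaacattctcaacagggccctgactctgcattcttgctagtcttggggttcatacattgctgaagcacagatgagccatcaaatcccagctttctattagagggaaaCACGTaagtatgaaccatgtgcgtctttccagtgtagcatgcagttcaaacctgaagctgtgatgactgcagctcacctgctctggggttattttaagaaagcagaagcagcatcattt

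In Derl3 the palindrome CACGTG matches on both strands from position -168, and 5 reverse CCAAT boxes lie around it. In Jchain the 1 match, on the opposite strand, starts at position -69. The 3 promoters differ in base composition, with 62% G and C in Derl3, 55.3% in Pou2af1 and 42.3% in Jchain. Promoter windows of 7 of the 8 members were in the table; Mzb1 had none there. The Xbp1 and Irf4 windows held 0 of the 6 motifs.

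Jchain, the secreted product among the members, was strongly detected. It read 8.42, 8.72 and 10.68 on wild-type arrays 1, 2 and 3 and 11.34, 10.82 and 10.69 on the knockout arrays. The lowest knockout value exceeded the highest wild-type value by 0.01, so the 2 groups were adjacent, and wild-type array 3 stood 2.11 above the mean of wild-type arrays 1 and 2. Means were 9.27 ± 1.23 and 10.95 ± 0.34 (SD, n = 3), and the log2 difference was 1.68 (standard error 0.528, adjusted p = 0.629 by limma). Without wild-type replicate 3 it passed the threshold at 2.38 (adjusted p = 0.00866; the 16 alternatives ran from 0.00866 to 0.986). With wild-type replicates 1 and 2 averaged it was 1.33, with an adjusted p of 0.942. Against wild-type array 3 alone, the knockout mean was higher by 0.27 for Jchain, 0.86 for Mzb1 and 1.57 for Pou2af1.

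Sdc1 had a level that depended on the probe set, and it did not follow the genes above. Its most intense probe set read 9.19, 9.29 and 9.21 in wild type and 8.58, 9.61 and 9.12 in knockout. Knockout array 1 was the lowest and knockout array 2 the highest of the 6 arrays. The log2 difference was -0.13, with a 95% interval from -0.68 to 0.43 (adjusted p = 0.905 by limma), and it turned to 0.14 without knockout replicate 1. The other 3 probe sets read 6.93 to 8.18, 4.35 to 5.50 and 2.25 to 3.10 on the 6 arrays. They had differences of -0.28, -0.39 and -0.37, all with overlapping groups. In all 4 probe sets knockout array 1 was the lowest: 8.58, 6.93, 4.35 and 2.25. The array with the highest Jchain, Mzb1, Xbp1 and Derl3 signals thus had the lowest Sdc1 signal.

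**Figure D3:**
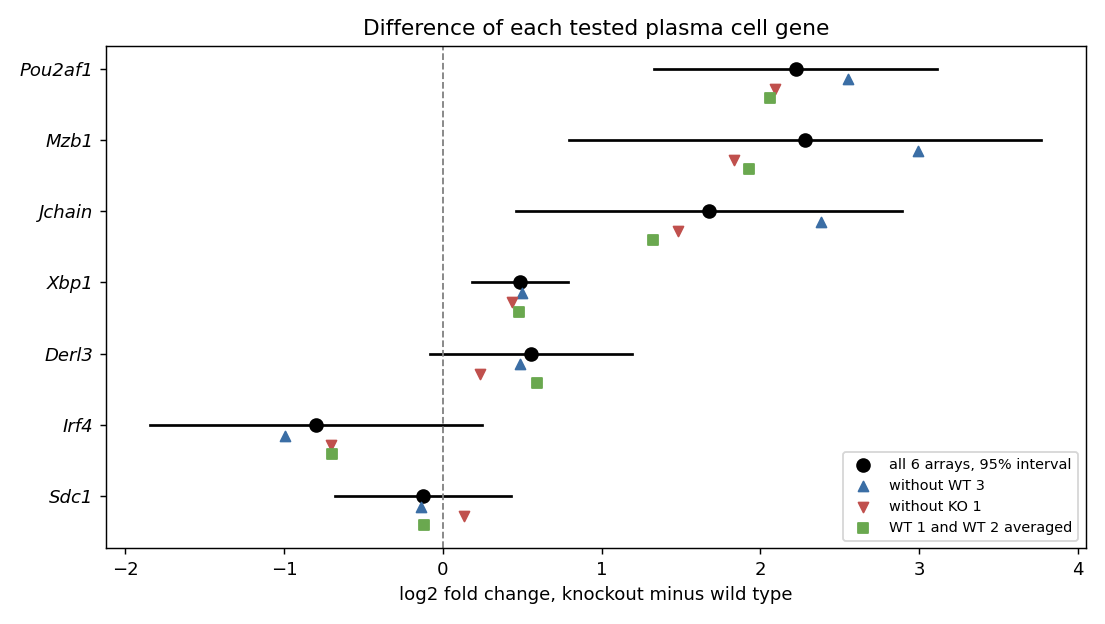
Horizontal axis, log2 fold change of knockout minus wild type for the 7 tested members (vertical axis); black points and bars give the limma estimate from 6 arrays with its 95% interval, and coloured symbols the estimate without wild-type array 3, without knockout array 1, or with wild-type arrays 1 and 2 averaged. Pou2af1 stays between 2.06 and 2.55 in these settings, while Jchain moves from 1.33 to 2.38.

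Across arrays the members fell into different patterns. Of the 7 tested members, 5 on knockout array 1, 6 on knockout array 2 and 5 on knockout array 3 lay above every wild-type array, against 28.8%, 24.3% and 28.6% of all genes tested. Below every wild-type array lay 2, 0 and 2 members, Irf4 and Sdc1 on array 1 and Irf4 and Sdc1 on array 3, against 31.9%, 26.9% and 33.1% of genes. The median deviation of the 8 members from the wild-type mean was 0.90, 0.47 and 0.32 on knockout arrays 1, 2 and 3. Mzb1 and Jchain ordered the arrays alike at the ends, with wild-type arrays 1 and 2 lowest and knockout array 1 highest. Pou2af1 differed from them on knockout array 3, where it was at its highest, 8.26. Within the wild-type group Jchain spanned 2.26 and Mzb1 2.43, against 0.11 for Xbp1 and 0.10 for Sdc1 on their most intense probe sets. Another Xbp1 probe set ran from 6.87 to 8.10 in wild type, and another Sdc1 probe set from 7.70 to 8.11. Fewer cells that express a gene and less RNA per cell cannot be told apart in such bulk samples.

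**Figure D4:**
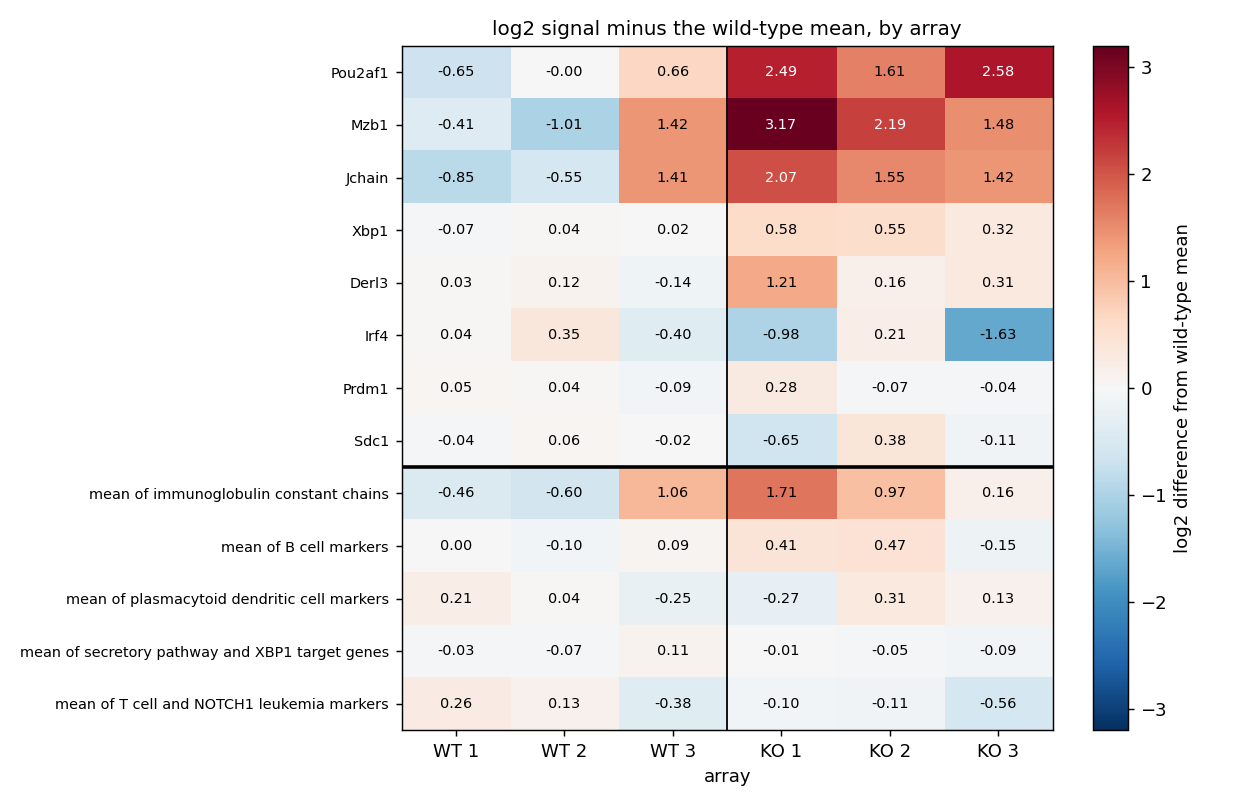
Log2 signal minus the wild-type mean (colour and printed number) for the 8 members, above the line, and the mean over the genes of 5 lists, below it, on each array (horizontal axis). Immunoglobulin constant chains are above the wild-type mean on wild-type array 3, at 1.06, and on knockout arrays 1, 2 and 3, at 1.71, 0.97 and 0.16, whereas the secretory list stays between -0.09 and 0.11 on all arrays.

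Markers of other cell types were read on the same arrays. Of 15 B cell markers measured, 12 of the 14 tested had higher means in knockout and 2 lower, with a median of 0.12 against -0.01 for all genes tested; 0 passed the threshold in either direction. Their summed signal on the linear scale ran from 162 to 226 in wild type and was 367, 431 and 143 on knockout arrays 1, 2 and 3. The signal transducer of the B cell receptor Cd79b read 5.54, 4.86 and 5.85 in wild type and 6.78, 7.34 and 4.74 in knockout, and the adaptor Blnk 3.13, 3.05 and 3.69 and then 4.44, 5.19 and 3.45. Cd79a and Pax5, which define the lineage, stayed near the bottom of the scale, at 2.32 to 2.52 and 1.91 to 2.63. Of the 15, 10 had both group means under 3. Ms4a1 and Cd22, chosen after their values were seen, were higher on the scale. Ms4a1 read 5.90, 5.17 and 6.21 in wild type and 7.01, 7.06 and 5.01 in knockout. Cd22 read 4.68, 4.70 and 3.30 and then 4.45, 4.58 and 3.16. Ms4a1 and Cd79b made up most of the summed signal on knockout arrays 1 and 2, so the sum there is largely that of these genes. Knockout array 3 had the lowest summed B cell signal and the highest Pou2af1 signal. The part of B lineage cells in the member differences was not tested.

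Immunoglobulin constant chains, which plasma cells make in bulk, were measured by 3 genes, and 0 passed in either direction. Igha read 9.41, 9.22 and 12.10 in wild type and 11.38, 11.35 and 11.32 in knockout, a log2 difference of 1.11 (adjusted p = 0.690 by limma). Like Jchain and Mzb1 it was low on wild-type arrays 1 and 2, but its highest value was on wild-type array 3. Ighm read 11.53, 11.38 and 12.41 and then 12.74, 12.54 and 11.77, and Ighg3 4.79, 4.72 and 5.77 and then 8.11, 6.14 and 4.51. Their summed linear signal was 3288 to 9887 in wild type and 6072 to 9782 in knockout. Their part in the differences of Jchain and Mzb1 was not tested.

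Markers of plasmacytoid dendritic cells, which also express Jchain and Mzb1, numbered 9 tested genes, 3 higher and 6 lower, with a median of -0.10 and 0 past the threshold in either direction. Siglech, their defining surface lectin, was near the bottom of the scale, at 2.45 to 2.90 in wild type and 2.03 to 2.79 in knockout. Cox6a2 and Pacsin1 read 1.89 to 2.85 on the 6 arrays. Smim5 differed by -0.18. Other list members, chosen after their values were seen, were not at the bottom of the scale. Tcf4 read 6.72, 6.89 and 3.92 in wild type and 5.15, 6.80 and 6.96 in knockout. Klk1 read 4.49, 3.89 and 4.55 and then 3.77, 3.96 and 4.83. Ly6d, also expressed by lymphoid progenitors, was the list member with the largest positive difference, 0.69. The summed linear signal of the list was 1112 to 1287 in wild type and 1696 to 2791 in knockout, but Ly6d made up 90.3%, 39.5% and 92.2% of it on knockout arrays 1, 2 and 3, and Ccr9, a homing receptor also found on thymocytes, 52.9% on knockout array 2. Without these 2 genes, left out after their values were seen, the sum was 68 to 163 in wild type and 75.4 to 185 in knockout.

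Of the 15 monocyte, macrophage and granulocyte markers, 10 were higher and 5 lower. Their median was 0.23, and 0 passed the threshold in either direction. Adgre1 differed by 0.58, Fcer1g by 0.62 and S100a9 by 0.27. Mpo, chosen after its values were seen, was lower by 1.06. It read 5.99, 5.84 and 3.27 in wild type and 3.40, 3.56 and 4.95 in knockout. All knockout values lay above all wild-type values for 3 of the 15 and below for 0, beside 5.49% and 8.29% of all genes. The summed linear signal of the 15 markers was 4656 to 5738 in wild type and 5411 to 7103 in knockout. S100a9 and S100a8, the latter chosen after its values were seen, made up most of this sum on every array. They read 10.70 to 11.18 and 10.97 to 11.30, so the sum says little of the other markers. Of 17 T cell and NOTCH1 leukemia markers, 3 were higher and 14 lower, with a median of -0.28 and 0 past the threshold. Bcl11b, Notch3 and Dtx1 differed by -0.55, -0.57 and -0.63. Of the 17, 2 genes, Bcl11b and Notch3, had all knockout values below all wild-type values, and 1 had all above. Among all genes 8.29% and 5.49% did so. Dtx1 read 12.22, 12.16 and 11.20 in wild type and 11.17, 11.24 and 11.27 in knockout. Its difference thus came from the near-identical wild-type arrays 1 and 2. The mean log2 signal of the 17 markers was 10.36, 10.23 and 9.73 on wild-type arrays and 10.01, 9.99 and 9.55 on knockout arrays. Epithelial and stromal markers, which could accompany Sdc1, had 8 of 9 genes under 3 in both group means. Epcam and Cdh1 differed by 0.30 and 0.10, while Pecam1, an endothelial and leukocyte gene, read 4.96 to 5.55 on the 6 arrays.

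Genes of the wider plasma cell programme had differences on both sides of 0. Of 34 genes of the secretory pathway and XBP1 targets, 32 were measured and tested, 13 higher and 19 lower, with a median of -0.07 and 0 past the threshold in either direction. Sec11c, a signal peptidase subunit, had 0.33 with no overlap between groups, whereas Edem1 and Sel1l, which act in degradation of misfolded proteins, had -0.60 and -0.63 with all knockout values below all wild-type values. The list had 1 gene with all knockout values above wild type and 4 with all below, or 5 of 32, beside 5.49% and 8.29% of all genes. The mean deviation of the list was -0.01, -0.05 and -0.09 on knockout arrays 1, 2 and 3, and -0.07 to 0.11 on the wild-type arrays.

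Plasma cell surface and survival genes were also balanced, with 8 of 16 tested genes higher and 8 lower, a median of -0.01 and 0 past the threshold. Cd27, Cd28, Cxcr4 and Mcl1 of this list, chosen after their values were seen, read 9.02 to 11.69 on all arrays. Which cells gave these signals was not tested, so the counts are not a measure of plasma cells alone. Ell2, an elongation factor that favours secreted immunoglobulin transcripts, read 3.26, 3.82 and 5.20 in wild type and 5.52, 5.68 and 4.62 in knockout. Fkbp11, a peptidyl-prolyl isomerase of the secretory pathway, differed by 0.56, and Cd93, needed for plasma cell maintenance, by 1.22, mainly from 5.22 on knockout array 1. Tnfrsf17 (BCMA), the survival receptor of plasma cells, was not tested, since it read 1.53 to 1.91 on all arrays; it was chosen after its values were seen.

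Of 10 genes of the B cell programme that PRDM1 represses, 8 were higher and 2 lower, with a median of 0.32 and 0 past the threshold. Irf8 had 0.79, Spib 0.70 and Ciita, which switches on MHC class II genes, 0.41, with Ciita and Spib low on the scale. The largest difference of the list went the other way, with Bcl6 at -1.08 and overlapping groups. Bcl6 was chosen after its values were seen. The list shares 4 measured genes with the B cell markers. A list of partner factors of POU2AF1 and IRF4 had 10 tested genes, and no octamer factor was among them. Of these 10, 8 were higher and 2 lower, with a median of 0.62 and 0 past the threshold. Irf8 and Spib are in this list too. Batf3 had 0.75, Ikzf3 (Aiolos) 0.77 and Tcf3, which encodes the E2A proteins, -0.48. Batf3 was low on the scale, at 1.96 to 3.15. Pou2f2, which encodes the octamer factor OCT2, read 1.76 to 1.96 on all arrays and was not tested; it was chosen after its values were seen. The other octamer factor of the list was not measured, so these counts hold no octamer partner of POU2AF1. Of 13 tested genes of activated and effector T cells, which can express Irf4 and Prdm1, 9 were higher and 4 lower. Their median was 0.10, and 0 passed the threshold. Cd44, Cd69 and Tnfrsf9 had 0.64, 0.73 and 0.36, with Tnfrsf9 near the bottom of the scale, at 1.90 to 2.46. Among the 4 lower genes, Il2ra had -0.34 and Ctla4 -0.73, both chosen after their values were seen.

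The genes most like the 3 members with the largest differences were sought among all genes tested, by the root mean square difference between profiles over the 6 arrays after each gene's mean was subtracted. Nearest to Pou2af1 were Serf1, Mcoln2, Rcn1 and Slpi, at 0.373 to 0.483 log2 units. Nearest to Mzb1 were Klf2, Gstt2, D930003E18Rik and Gadd45g, at 0.403 to 0.475. Nearest to Jchain were Pde4b, an immunoglobulin kappa variable segment of the Igkv8 family, Rcn1 and Hspa4l, at 0.203 to 0.322. The kappa segment read 8.65, 8.67 and 10.44 in wild type and 11.18, 10.41 and 10.10 in knockout. Pde4b read 4.32, 4.44 and 6.35 in wild type and 6.82, 6.80 and 6.11 in knockout. Both thus had low values on wild-type arrays 1 and 2 and higher ones on the other 4 arrays, as Jchain did. They were picked for this likeness, so the shared pattern follows from the choice. Among the members themselves, Jchain and Mzb1 differed by 0.499, Jchain and Pou2af1 by 0.575, and Mzb1 and Pou2af1 by 0.781, while the largest difference was 1.91, between Mzb1 and Irf4.

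**Figure D5:**
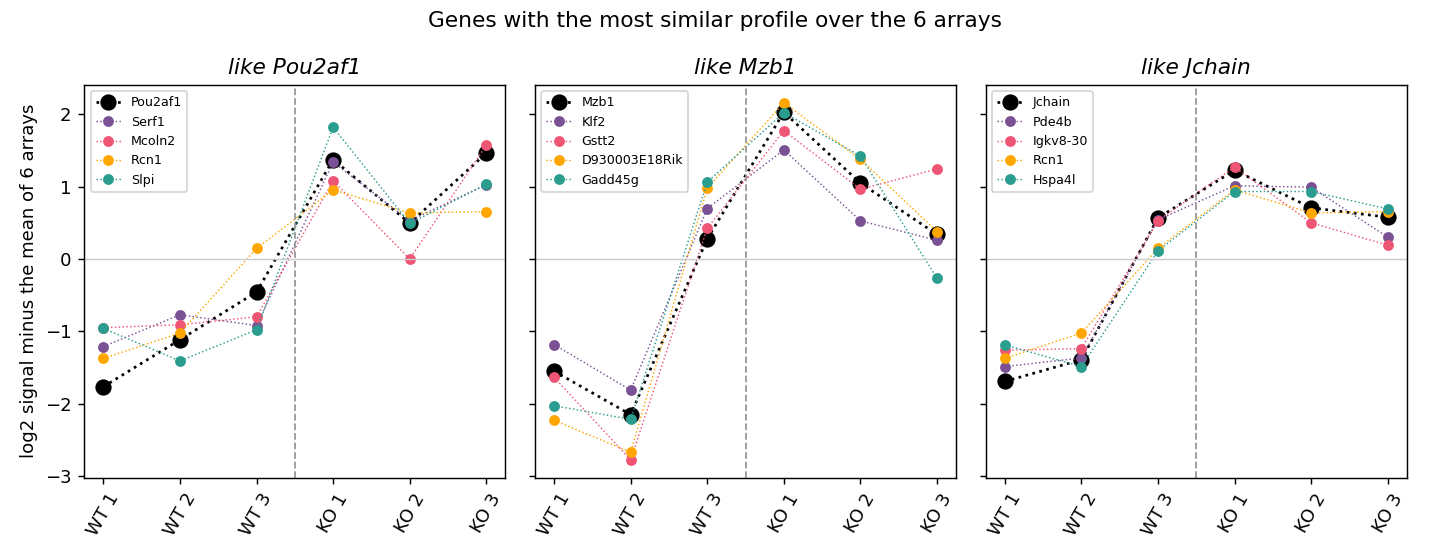
Log2 signal minus the mean of the 6 arrays (vertical axis) by array (horizontal axis) for Pou2af1, Mzb1 and Jchain in black and for the 4 genes nearest to each in colour; dotted lines only join the values of 1 gene. The genes picked for likeness to Jchain are, as it is, low on wild-type arrays 1 and 2 alone. Pou2af1 is above its mean on the 3 knockout arrays.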

How the data were processed

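Per the labels' protocols, 10 ng of RNA per sample was amplified by a whole-transcriptome kit before biotin labelling. The deposited values are log2 signals of 45101 probe sets, made by the authors with GCRMA, per the submitters' processing notes; no settings are stated in the sources used here, and base 2 was inferred from their range. Low GCRMA values are compressed. Array number limits the precision.

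Symbols came from the platform annotation, updated to a RefSeq table of GRCm38.p6. Of the probe sets, 34958 had 1 symbol, 932 several and 9211 none. Each of 18194 genes was represented by its probe set of 1 symbol with the highest mean, and 12565 genes whose mean exceeded 2.04, the 40th percentile over probe sets, were tested with limma 3.58.1 in R 4.3.3 (lmFit, eBayes with intensity trend, two-sided, Benjamini-Hochberg over all genes, threshold 0.05). Other probe sets of the members were compared by their values. The fit was also run on simulated data as a check of the code, which tells nothing of these arrays. Groups follow the sample titles; nothing ties arrays to animals (titles say biological replicates, the protocol RNA in triplicate), so p-values measure the spread between arrays, which may be technical.

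Members, lists (11) and tests were chosen with earlier results of these data known. Genes named are the members, Sh2b3, up to 3 per list with the smallest p, the 4 nearest profiles of 3 members, and those said to be chosen after their values were seen. Marker genes whose lists are checked for presence are named for that purpose. Alternatives covered the low value filter, prior variance, normalization, array weights, pairing, single arrays, near-identical arrays, choice of probe set and variance estimate.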

Additional observations from a re-analysis of the deposited data

How the results depend on the processing

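With 6 arrays and 1 near-identical wild-type pair, single arrays decided the calls. Leaving out 1 array at a time gave 0 to 54 genes past the threshold over all genes and 0 to 2 among the members; the 54 (20 higher, 34 lower) and the 2 (Jchain and Pou2af1) came without wild-type replicate 3, when the near-identical pair makes up the wild type. Without knockout replicate 1 there were 3 genes and without knockout replicate 3 there was 1. Array weights gave 1 gene, and an unadjusted p under 0.05 gave 982 (415 higher, 567 lower). The remaining alternatives gave 0 genes. With the replicate block there were 0 genes past the threshold, 901 at an unadjusted p under 0.05, and 0 members past it. Arrays with the same number did not deviate together (correlations of deviations -0.04, -0.05 and -0.05), so the numbers were not taken as pairs. Pou2af1, Mzb1, Jchain, Xbp1, Derl3 and Irf4 kept their sign in every alternative that gave a value; Derl3 was not tested with the filter at the 60th percentile. Sdc1 changed sign without knockout replicate 1, at 0.135, in a range of -0.38 to 0.135 with 1 array left out. Prdm1, tested without a filter on low values, had 0.06 with an adjusted p of 0.938 by limma. The causes were not tested. Low signal limits what can be said of Prdm1, Derl3 and Irf4.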

Other observations

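Some genes of the lists above, chosen after their values were seen, split the arrays in other ways than genotype. Ikzf1 (Ikaros), a lymphoid transcription factor, read 8.30, 8.20 and 10.80 on wild-type arrays 1, 2 and 3 and 10.74, 10.79 and 8.12 on knockout arrays 1, 2 and 3. Id3, an inhibitor of E proteins, read 8.55, 8.30 and 10.25 and then 10.04, 10.27 and 8.38. Both were thus high on wild-type array 3 and knockout arrays 1 and 2 and low on the other 3 arrays. Jchain and Mzb1 shared the high values on those 3 arrays but were not low on knockout array 3, where Jchain read 10.69 and Mzb1 6.93. Ctla4, an inhibitory receptor of T cells, read 7.96 on wild-type array 3 and 2.21 to 4.13 on the other 5 arrays. Bcl6, a repressor that opposes PRDM1 in B lymphocytes, read 4.79 on knockout array 3 and 6.84 to 8.21 elsewhere. These values have no test of their own here.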
